A study of Mus musculus with 2 samples.

Results

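The genes described here encode the core machinery of clathrin-mediated endocytosis, which are the clathrin chains (Clta, Cltb and Cltc), the subunits of the adaptor complex AP-2 (Ap2a1, Ap2a2, Ap2b1, Ap2m1 and Ap2s1) and a pair of dynamins (Dnm1 and Dnm2). They were chosen by symbol, as proteins that arrestins bind or use, though with earlier results of these data known. All 10 were listed in both libraries, out of 16302 gene symbols in all. The values came from RNA sequencing of niche astrocytes, that is, astrocytes cultured from the dentate gyrus (DG) of the adult mouse hippocampus. One library was made from wild type (WT) C57BL/6 mice and one from β-arr1 KO mice, labelled C57BL/6 too and of C57BL/6J background per the study's methods. The KO mice carry the β-arr1-/- genotype in every cell and lack β-arrestin 1, the product of Arrb1. The study sequenced them to find which transcripts differ between β-arr1 KO and WT niche astrocytes, and no treatment was applied to either. The cells had been grown in medium with serum and shaken to take off loosely attached cells, so they were enriched by culture and not sorted. Per the series' description the cDNA was pooled, and the labels do not tie the libraries to single mice, ages or sexes.

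In clathrin-mediated endocytosis, AP-2 binds cargo receptors and the lipid PIP2 at the plasma membrane and recruits clathrin, whose heavy and light chains form the 3-legged triskelion that assembles into a cage around the budding vesicle. Dynamin, a large GTPase, then constricts and cuts the neck of the vesicle, and auxilin-family proteins with Hsc70 remove the coat. β-arrestins link activated G protein-coupled receptors to this machinery, because they bind both the clathrin heavy chain and the β2 subunit of AP-2. In astrocytes the pathway serves the uptake of receptors, transporters and extracellular ligands.

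The values are FPKM (fragments per kilobase of transcript, scaled to the mapped fragments of the library), so levels of different genes can be set side by side per length. With 1 library per genotype, the comparison has no replicate check and no test, and genotype cannot be told apart from any other difference between these cultures. Ratios of β-arr1 KO vs. WT are given with 95% intervals that cover the counting of fragments only. A ratio above 3/2 or below 2/3 was called past the limits. Mapped fragments, estimated from the steps between low FPKM values, came to 9.54 M (WT) and 9.82 M (KO). The targeted gene, Arrb1, had 7.62 FPKM for WT against 2.72 FPKM for KO. This ratio of 0.358 (interval, 0.301 to 0.424) was below 2/3 but left transcript in the KO library. Computed for the shortest annotated coding transcript of Arrb1, the interval was 0.124 to 0.906, which held 2/3. Arrb2, which encodes the other β-arrestin, had 31.6 FPKM and 23.3 FPKM (ratio, 0.737), within the limits.

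The astrocyte label was checked with 10 markers, all of which were listed in both libraries, and their summed level was 391 FPKM (WT) and 409 FPKM (KO). Gfap, the astrocyte intermediate filament, stood at 189 FPKM and 192 FPKM and made a large part of both sums. Of the other astrocyte markers, 3 were above 3/2 in β-arr1 KO, which were Aqp4 (ratio, 1.92), S100b (1.77) and Slc1a2 (1.58), and the median log2 ratio of the 10 was 0.33, with Glul the lowest at a ratio of 0.742. Markers of other cells were also present, and their counts past the limits stand beside 9.56% of all analysed genes above 3/2 and 8.28% below 2/3. Microglial markers summed to 419 FPKM for WT against 334 FPKM for KO, with 1 of 7 past a limit (Cd68, lower in β-arr1 KO). Csf1r made a large part of both sums (146 FPKM and 135 FPKM), from a row at chr18:61204804-61290793. Whether that row also took in fragments of a neighbouring gene was not tested. Fibroblast and pericyte markers summed to 525 FPKM and 276 FPKM, with 4 of 4 analysed markers below 2/3 and Lum listed in WT only. Neither library had a row under the symbol Pdgfrb. Oligodendrocyte lineage markers summed to 85.5 FPKM and 127 FPKM, with 4 of 7 above 3/2 and Mog listed in β-arr1 KO only. Skeletal muscle markers summed to 35.9 FPKM and 75.8 FPKM, with 2 of 3 above 3/2 and Myod1 listed in β-arr1 KO only. Myh3 was listed in WT only, at 0.0180 FPKM or an estimated 1 fragment, and the KO table held a row for Myh8 at 23.4 FPKM that spanned its locus. Neuronal markers summed to 85.6 FPKM and 108 FPKM, with none of 3 past a limit. Most of both sums came from Tubb3 (44.7 FPKM and 59.8 FPKM) and Stmn2 (36.6 FPKM and 43.4 FPKM), with Syn1 at 3.48 FPKM and 4.12 FPKM. Rbfox3 stood at 0.0743 FPKM and 0.108 FPKM, and Snap25, Syt1, Gad1 and Slc17a7 were also below 1 FPKM in both libraries. Nefl was listed in WT only, at 0.172 FPKM, and Map2 was listed in neither library. Neural precursor markers summed to 147 FPKM and 194 FPKM, with 1 of 3 above 3/2 and Dcx listed in β-arr1 KO only. Endothelial markers summed to 40.8 FPKM and 28.6 FPKM, with 1 above and 1 below among 4. Cdh5 made most of both endothelial sums (31.8 FPKM and 16.1 FPKM, a ratio of 0.507). Pecam1 (1.72) and Kdr (1.44) were higher in β-arr1 KO, and Cldn5 (0.672) was lower. The part of these cells in any result below was not tested. In such bulk samples, fewer cells of a type and less RNA per cell cannot be told apart.

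None of the 10 clathrin, AP-2 and dynamin genes was past the limits, that is, 0 of 10, whereas 17.8% of the 12646 genes with at least 1 FPKM in one of the libraries were (9.56% above 3/2 and 8.28% below 2/3). With genes listed in one table left out, that share was 14.6%, and past the wider limits of 2 and 1/2 it was 9.2%, with 0 of 10 members in either case. Most of these genes were well expressed, and among the 1611 genes with 40 FPKM or more in both libraries, 5.34% were past the limits, so a count of 0 in a list of 10 was near the background of genes at such levels. The median log2 ratio was -0.01 over the members and 0.02 over all genes analysed. Ratios ran from 0.723 (Clta) to 1.07 (Ap2a1), and 8 of 10 lay between 0.9 and 1.1, a band chosen after the values were seen, which held 41.5% of the 12171 genes listed in both libraries and 54.8% of those at 40 FPKM or more. The counting interval lay above 1 for 2 members (Cltc and Ap2a1) and below 1 for 2 (Clta and Ap2s1). Over all genes that have an interval, it left out 1 for 40.9%, and over those at 40 FPKM or more for 59.2%. The lower bounds for Cltc and Ap2a1 were 1.006 and 1.007. Other scalings multiplied the KO values by 0.988 to 1.003, so whether these 2 intervals leave out 1 depends on the scaling. Summed over the members, the level was 878 FPKM (WT) and 795 FPKM (KO), and without Clta it was 610 FPKM and 601 FPKM.

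**Figure D1:**
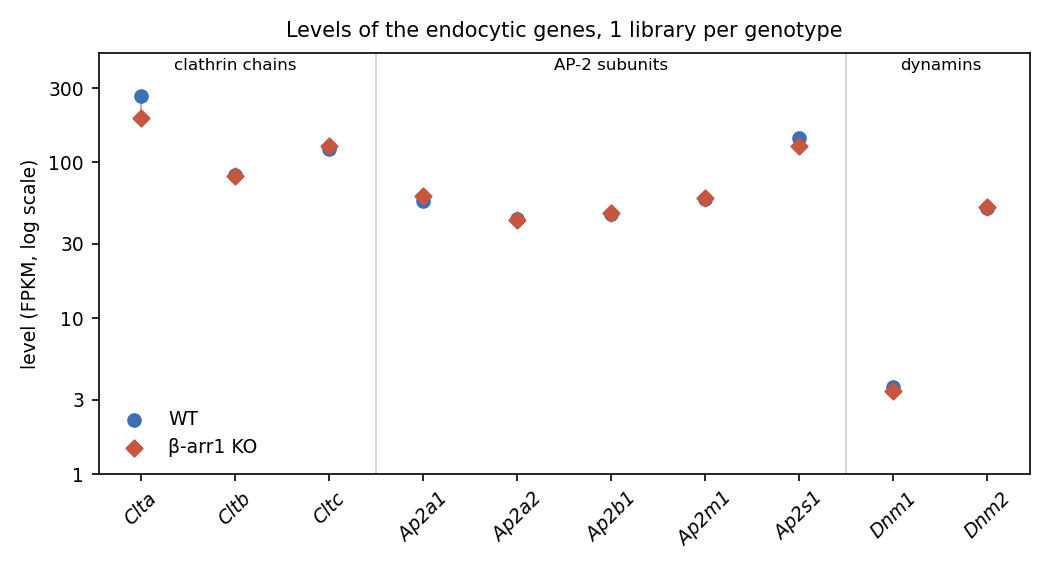
FPKM of the clathrin, AP-2 and dynamin genes on a log axis, with 1 point for the WT library and 1 for the β-arr1 KO library per gene. Clta was the highest in both (268 FPKM and 194 FPKM), Dnm1 the lowest (3.62 FPKM and 3.41 FPKM), and the paired points of the other genes lie close together.

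**Figure D2:**
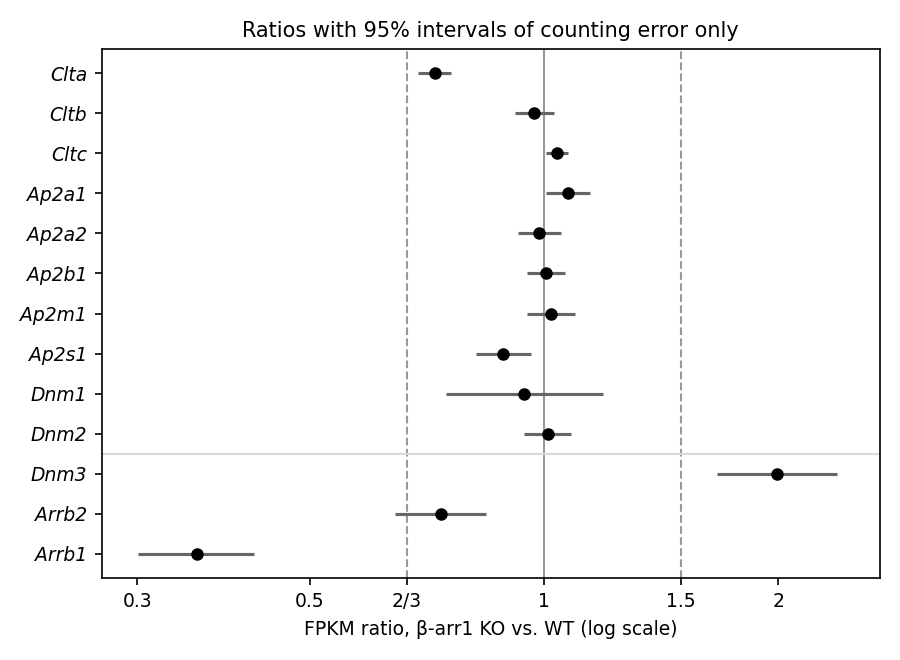
Ratio of β-arr1 KO vs. WT for each of the 10 genes on a log axis, with bars for the 95% interval of counting error and dashed lines at 3/2 and 2/3. All 10 points lie between the lines, with Clta the lowest at 0.723, and below the grey line Dnm3 (1.99), Arrb2 (0.737) and Arrb1 (0.358) are drawn for comparison.

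The clathrin light chain a gene, Clta, was the member with the largest difference between the libraries, and it was lower in β-arr1 KO. Light chains sit along the heavy chain legs, where they regulate cage assembly and bind actin-linking proteins such as Hip1r. Clta (NCBI gene 12757, mm9 chr4:44025509-44045718, plus strand) had 268 FPKM for WT against 194 FPKM for KO, which is 27.7% lower. The ratio was 0.723 (interval, 0.689 to 0.759), a log2 ratio of -0.47, and it was above the limit of 2/3. It rested on an estimated 3941 fragments in WT and 2934 in β-arr1 KO. Computed for the shortest annotated coding transcript of the gene, the interval was 0.678 to 0.771. Of the genes at 40 FPKM or more in both libraries, 4.1% had a ratio at or below that of Clta. Its rank among all genes was 161 in WT and 249 in β-arr1 KO.

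Cltb, which encodes light chain b (NCBI gene 74325, chr13:54693952-54712887 in the WT table, minus strand), had 83.6 FPKM (WT) and 81.2 FPKM (KO). The ratio of 0.972 had an interval that held 1 (0.918 to 1.03). The end of the Cltb row lay 317 bases further out in the KO table, so its length may have differed between the tables. Cltc, the heavy chain gene (NCBI gene 67300, chr11:86508155-86571120 in the WT table, minus strand), had 122 FPKM and 127 FPKM. Its ratio was 1.04, with an interval of 1.01 to 1.07 that widened to 0.945 to 1.14 with the shortest coding transcript and then held 1. Of the 3 chains, then, the one that stood apart between the libraries was light chain a.

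The chains are known to combine as 1 light chain per heavy chain, with either light chain in a position. At the transcript level, the sum of both light chains was 352 FPKM for WT against 275 FPKM for KO, and its ratio to the heavy chain was 2.88 and 2.17. Clta made up 76.2% of the light chain FPKM in WT and 70.5% in β-arr1 KO. Light chain a was thus the more abundant transcript in both libraries, by 3.21 times over Cltb in WT and 2.39 times in β-arr1 KO. Relative to the heavy chain, Clta stood at 2.20 in WT and 1.53 in β-arr1 KO.

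Both light chain genes have exons that are skipped in some transcripts, the neuronal inserts, and these are shown because an FPKM value per gene sums over forms with and without them. The sequences were read from the NCBIM37 (mm9) genome by the exons of its GENCODE annotation and are coding. The 54-base exon lies at chr4:44043087-44043140 on the plus strand in Clta and at chr13:54698387-54698440 on the minus strand in Cltb. Capitals mark the bases that are the same in both genes at that position, which were 37 of 54 (68.5%).
Clta 54-base exon: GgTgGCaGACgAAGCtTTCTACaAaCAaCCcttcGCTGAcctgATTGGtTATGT
Cltb 54-base exon: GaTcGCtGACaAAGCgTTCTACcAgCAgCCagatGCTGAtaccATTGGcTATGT
Clta has a further skipped coding exon of 36 bases at chr4:44044272-44044307, shown in lower case throughout because Cltb has no annotated counterpart among its skipped exons.
Clta 36-base exon: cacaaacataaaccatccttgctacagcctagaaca
These exons add 18, 18 and 12 codons in the order shown and keep the reading frame. In the annotation the 54-base exon was in 3 of 7 coding transcripts of Clta and in 1 of 3 of Cltb, and the 36-base exon was in 2 of 7. Which forms the niche astrocytes expressed cannot be read from values per gene.

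AP-2 is a heterotetramer of 1 α, 1 β2, 1 μ2 and 1 σ2 subunit, and its 5 genes had ratios from 0.887 to 1.07. The α subunit, which binds PIP2 and, through its appendage, other coat proteins, is encoded by either of a pair of genes. Ap2a1 (NCBI gene 11771, chr7:52155743-52184860, minus strand) had 56.5 FPKM (WT) and 60.7 FPKM (KO). Its ratio of 1.07 had an interval of 1.01 to 1.15, or 0.940 to 1.23 with the shortest coding transcript. Ap2a2 (NCBI gene 11772, chr7:148748071-148818910 in the WT table, plus strand) had 43.6 FPKM and 43.0 FPKM, with a ratio of 0.986 (interval, 0.924 to 1.05). Ap2a1 made up 56.4% of the α FPKM in WT and 58.5% in β-arr1 KO, so both genes contributed in similar measure in both libraries.

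Ap2b1 encodes β2, the subunit whose appendage β-arrestins bind (NCBI gene 71770, chr11:83116199-83218535, plus strand). It had 46.9 FPKM for WT against 47.2 FPKM for KO, and the interval of its ratio of 1.01 ran from 0.952 to 1.06. Ap2m1 encodes μ2, which reads tyrosine-based sorting signals of cargo (NCBI gene 11773, chr16:20535577-20544126, plus strand). It had 58.2 FPKM and 59.4 FPKM, with a ratio of 1.02 (interval, 0.951 to 1.09). Both of these genes thus differed between the libraries by less than their counting error. Relative to the summed α genes, Ap2b1 stood at 0.468 (WT) and 0.455 (KO), and Ap2m1 at 0.581 and 0.572.

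Ap2s1, which encodes the small subunit σ2 that contributes to recognition of dileucine signals, was the AP-2 gene with the highest level and the lowest ratio (NCBI gene 232910, chr7:17323793-17334639, plus strand). It had 144 FPKM (WT) and 128 FPKM (KO), from an estimated 1216 and 1110 fragments. The ratio was 0.887 (interval, 0.817 to 0.963), and the interval still left out 1 with the shortest coding transcript (0.801 to 0.981). Over the α genes, Ap2s1 stood at 1.44 in WT and 1.23 in β-arr1 KO, so its transcript exceeded that of its partners in both libraries.

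Of the dynamins, Dnm2, the form found in most tissues, was the main transcript, and Dnm1, the form known for synaptic vesicle recycling in neurons, was low. Dnm2 (NCBI gene 13430, chr9:21229352-21312203, plus strand) had 51.0 FPKM for WT against 51.6 FPKM for KO, with a ratio of 1.01 (interval, 0.944 to 1.08). Its locus overlaps that of Tmed1 by 380 bases, and the summed level of both gave the same ratio, 1.01. Dnm1 (NCBI gene 13429, chr2:32163991-32208824 in the WT table, minus strand) had 3.62 FPKM and 3.41 FPKM, from an estimated 153 and 149 fragments. Its ratio of 0.943 had the widest interval of the members, 0.747 to 1.19, or 0.231 to 3.82 with the shortest coding transcript, so a difference of moderate size was not detectable at this depth. Dnm2 exceeded Dnm1 by 14.1 times in WT and 15.1 times in β-arr1 KO.

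The third dynamin gene, Dnm3, known from brain and testis, was not a member but was above 3/2. It had 2.73 FPKM (WT) and 5.44 FPKM (KO), a ratio of 1.99 (interval, 1.67 to 2.38). The start of its row in the KO table minus that in the WT table was -4707 bases, and its locus holds the antisense gene Dnm3os, at 0.797 FPKM and 0.342 FPKM, and 2810442N19Rik, listed in WT only at 0.981 FPKM. Summed with these, the ratio was 1.28, within the limits. FPKM values of genes of different length do not add as fragments do, so the sum does not decide the ratio of Dnm3. Of the FPKM of all 3 dynamins, Dnm2 held 88.9% in WT and 85.3% in β-arr1 KO, Dnm1 6.31% and 5.65%, and Dnm3 4.76% and 9.004%.

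**Figure D3:**
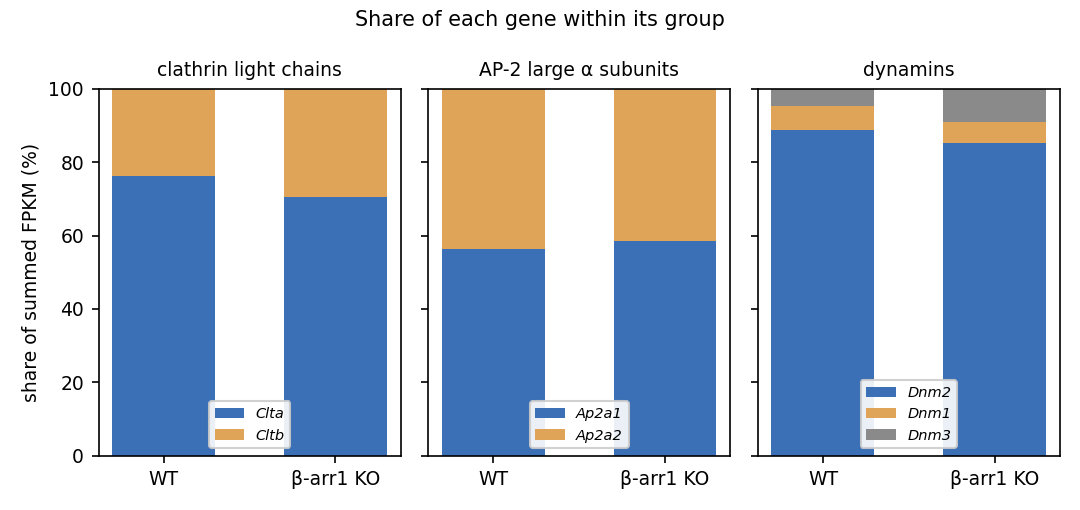
Shares of FPKM within the light chains, the α subunits of AP-2 and the dynamins, in percent, for the WT and β-arr1 KO libraries, with stacked bars that start at 0. Clta held 76.2% and 70.5% of the light chain FPKM, Ap2a1 56.4% and 58.5% of the α FPKM, and Dnm2 88.9% and 85.3% of the dynamin FPKM.

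In WT the order of levels from high to low was Clta, Ap2s1, Cltc, Cltb, Ap2m1, Ap2a1, Dnm2, Ap2b1, Ap2a2 and Dnm1. All neighbours in that order had ratios to each other whose counting interval left out 1, except Ap2m1 and Ap2a1 (ratio, 1.03, with an interval of 0.961 to 1.103). These intervals used the longest annotated transcript of each gene. They were not computed for shorter transcripts, which would widen them, and they leave out any error in gene length. In β-arr1 KO the order was the same but for Ap2a1 and Ap2m1, which changed places and again did not differ beyond counting error (ratio, 1.02, with an interval of 0.957 to 1.09). Ap2s1 and Cltc, which differed in WT by a ratio of 1.18, stood at 1.01 in β-arr1 KO (interval, 0.946 to 1.07). The step from Ap2a2 down to Dnm1 was the largest in the order, at 12.05 times in WT and 12.6 times in β-arr1 KO. The heavy chain stood at 2.16 times the median AP-2 gene in WT and 2.14 times in β-arr1 KO.

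**Figure D4:**
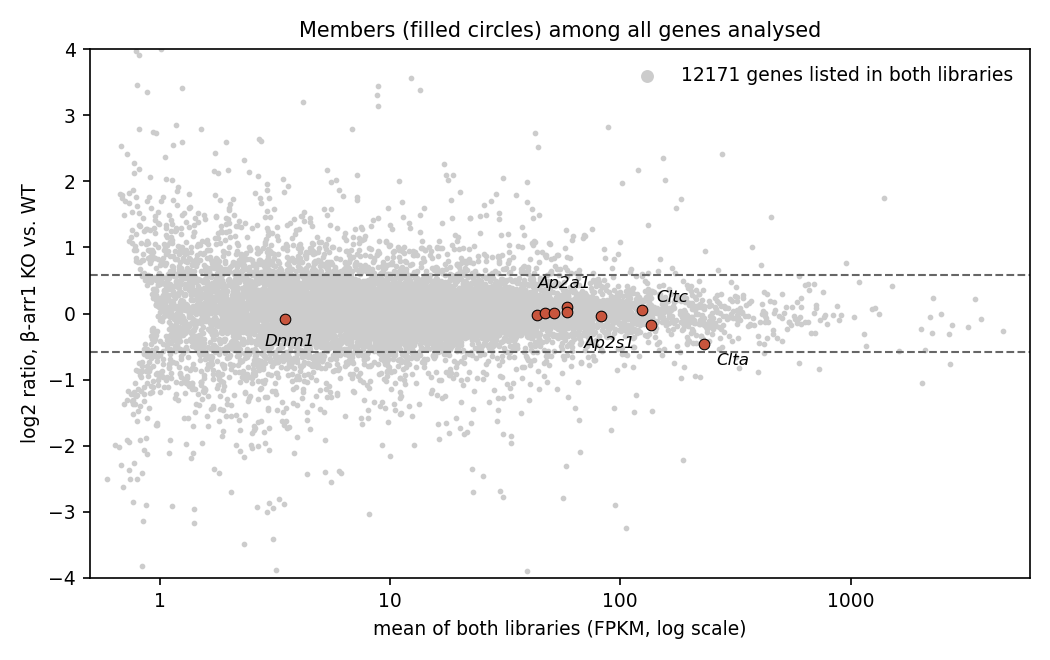
Log2 ratio of β-arr1 KO vs. WT against the mean FPKM on a log axis for 12171 genes listed in both libraries (grey), with the clathrin, AP-2 and dynamin genes coloured and dashed lines at 3/2 and 2/3. The coloured points lie within the band of grey points at their levels, with Clta at -0.47 the lowest of them, and 21 grey genes fall outside the axis.

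Reads of 100 bases that fit more than 1 locus could be divided wrongly, so the members' sequences were compared. The longest run of identical bases between paralogous coding sequences was 11 bases for Clta and Cltb, 68 bases for Ap2a1 and Ap2a2 and 34 bases for Dnm1 and Dnm2, all shorter than a read. The longest run is shown for the α genes and the dynamins, since it is where a shorter fragment of a read could not tell the paralogs apart. It lies at coding positions 1327 to 1394 of Ap2a1 and 1324 to 1391 of Ap2a2, and at 1763 to 1796 of both Dnm1 and Dnm2, counted from the first base of the start codon.
Ap2a1 and Ap2a2: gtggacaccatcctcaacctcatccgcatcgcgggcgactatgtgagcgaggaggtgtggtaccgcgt
Dnm1 and Dnm2: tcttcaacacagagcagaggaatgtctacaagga
Windows of 100 bases were counted along the transcript with the longest coding sequence of each member. For Clta, Cltb, Cltc, Ap2a2, Ap2b1, Ap2m1, Ap2s1, Dnm1 and Dnm2, none was shared with a coding transcript of another gene. Other transcripts of Dnm2 did share windows with Tmed1, whose locus overlaps that of Dnm2. Ap2a1 shared 152 of 3350 windows with Fuz, and Fuz was not analysed here. The exception in the genome was Ap2m1, of whose 2838 windows 1326 (46.7%) also occurred in copies on chromosomes 2, 8 and 19. The longest of these, at chr2:49163544-49165444 (NCBIM37), was 98.6% identical over 1920 aligned bases and is annotated as the transcribed processed pseudogene Gm13509. The levels of Ap2m1 are therefore less certain than those of the other subunits. A copy of Ap2b1 on chromosome 4 (Gm12834, 91.1% identical) held none of its windows.

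Genes that act with the members were taken as whole lists. Coat assembly and cargo adaptors numbered 25, of which 23 reached 1 FPKM in one of the libraries. Among them 1 was above 3/2, 1 below 2/3 and 21 between, and the median log2 ratio was 0.02. Dab2, an adaptor that carries members of the LDL receptor family into clathrin-coated pits, had 84.6 FPKM for WT against 50.3 FPKM for KO. This ratio of 0.595 (interval, 0.564 to 0.628) was the lowest of the list. The 4 analysed fibroblast and pericyte markers were also below 2/3, as was Cd68 alone of the 7 microglial markers, and the part of these cells in the level of Dab2 was not tested. Snap91, the neuronal relative of Picalm, had 3.65 FPKM and 5.61 FPKM, a ratio of 1.54 (interval, 1.21 to 1.96), and with a pseudocount of 1 FPKM it came to 1.42, within the limits. Picalm, which binds PIP2 and clathrin and sorts small SNARE proteins, was the highest of the list at 146 FPKM and 161 FPKM (ratio, 1.098).

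Scission and uncoating genes numbered 24, of which 21 were analysed. Dnm3, described above, was above 3/2, none was below 2/3, and the median log2 ratio was 0.08. The highest was Hspa8, the gene of the uncoating ATPase Hsc70, at 253 FPKM for WT against 284 FPKM for KO, a ratio of 1.12. Of the adaptor complexes AP-1, AP-3 and AP-4, which act at the Golgi and endosomes, 17 of 19 genes were listed and 14 analysed. Ap3m1 and Ap4s1 were listed in neither library. The median log2 ratio of this list was -0.01, and 2 genes were above 3/2, namely Ap1g2 and Ap4m1. Ap1g2, a γ subunit of AP-1, had 2.18 FPKM and 4.07 FPKM (ratio, 1.87). The overlapping gene Thtpa had 7.51 FPKM (WT) and 6.53 FPKM (KO), and the summed ratio was 1.09. Thtpa made up most of that sum, so it does not decide the ratio of Ap1g2. Ap4m1, the μ subunit of AP-4, was listed in β-arr1 KO only at 7.16 FPKM. Its locus overlaps by 69 bases that of Taf6, which had 19.0 FPKM for WT against 21.3 FPKM for KO. Summed with Taf6 the level was 19.0 FPKM and 28.5 FPKM, a ratio of 1.497 that was within the limits. Taf6 made up most of that sum, so it does not decide the ratio of Ap4m1. Ap1s1, the σ subunit of AP-1, was the highest at 86.9 FPKM and 96.5 FPKM.

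Caveolae, a clathrin-independent route into the cell, were covered by 8 genes, of which 2 were above 3/2 (9.56% of all genes), 1 below 2/3 (8.28% of all genes) and 5 between, with a median log2 ratio of 0.20. The genes above were the muscle forms Cav3, at 0.956 FPKM (WT) and 3.19 FPKM (KO), with a ratio of 3.34 and an interval of 1.55 to 7.96, and Murc, at 0.895 FPKM and 3.97 FPKM (ratio, 4.43, with an interval of 2.56 to 8.14). Of the 3 analysed skeletal muscle markers 2 were also above 3/2, with Myog at 0.160 FPKM and 4.12 FPKM and Acta1 at 5.95 FPKM and 28.4 FPKM, while Des had a ratio of 1.41, and the part of such cells in these ratios was not tested. Sdpr, which encodes cavin-2, had 57.8 FPKM and 38.3 FPKM. Its ratio of 0.663 lay just below 2/3 and came to 0.669, within the limits, with a pseudocount of 1 FPKM. Ptrf, which encodes cavin-1, was the highest in WT at 246 FPKM, with 217 FPKM in β-arr1 KO, where Cav1 was higher at 259 FPKM.

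Early and recycling endosome genes, which receive vesicles once they are uncoated, numbered 23, all analysed. Their median log2 ratio was -0.03, with 1 above 3/2, 1 below 2/3 and 21 between. Rab11b, a GTPase of recycling endosomes, had 13.6 FPKM for WT against 38.4 FPKM for KO, a ratio of 2.82 (interval, 2.48 to 3.21), and its row had other bounds in each table. Rab5b, a GTPase of early endosomes, was listed in WT only, at 28.6 FPKM. The KO table held a row for Cdk2 at 38.8 FPKM that spanned the locus of Rab5b, and the summed level of both genes was 41.1 FPKM (WT) and 38.8 FPKM (KO), a ratio of 0.944. FPKM values of genes of different length do not add as fragments do, so the sum does not decide the ratio of Rab5b. The highest of the list, Rab5c, had 131 FPKM and 128 FPKM. Over the 5 lists together, 10 of 89 analysed genes (11.2%) were past the limits, beside 17.8% of all genes analysed, and 6 of these 10 had different bounds in the tables or were listed in one table only.

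**Figure D5:**
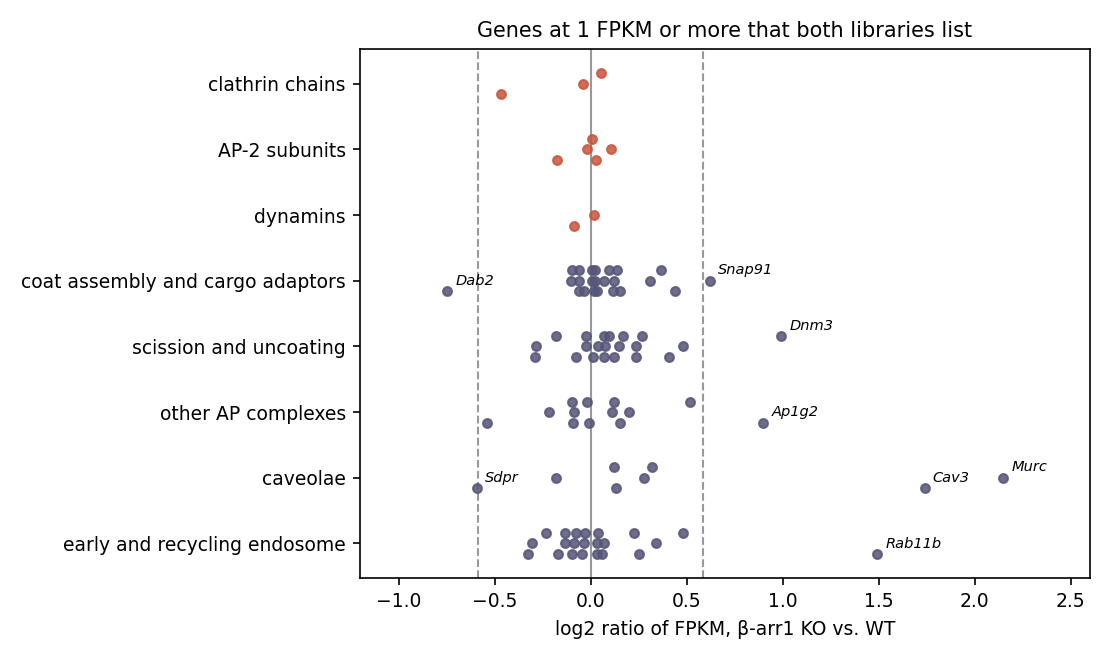
Log2 ratio of β-arr1 KO vs. WT for genes at 1 FPKM or more that were listed in both libraries, with 1 point per gene in rows by list (members in red, wider lists in dark blue, stacked only to part the points) and dashed lines at 3/2 and 2/3. The members lie between -0.47 (Clta) and 0.10 (Ap2a1), and the named points are the genes of the wider lists past the lines, from -0.75 for Dab2 to 2.15 for Murc.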

How the data were processed

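RNA-seq of cultured DG astrocytes gave 1 library each for WT and β-arr1 KO, grouped by the genotype in the labels. Per the paper, reads of 100 bases in pairs were aligned to mm9 with TopHat (version 1.4.0 in the submitters' processing notes) and levels were estimated with Cufflinks, whose version and strand setting are not given in the sources used here. Each table the authors deposited lists symbols, loci and FPKM values above 0, already scaled for length and library size. Tables were joined by symbol. The highest of rows that share a symbol was kept (55 symbols for WT, 69 for KO), and a gene listed once was given 0 in the other table. Genes with at least 1 FPKM in one library were analysed, as ratios of KO vs. WT without a pseudocount. The limits 3/2 and 2/3 are those of the paper. It reported a smaller share of genes past them, among genes chosen by a filter that it does not describe. No p-value was computed.

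Starts were raised by 1 after comparison with GENCODE (NCBIM37). Mapped fragments were estimated from genes below 0.15 FPKM with 1 transcript over 1000 bases (69.2% of 416 in WT and 69.9% of 435 in β-arr1 KO lay within 5% of a step), a computation tested on simulated data. Fragments per gene used the longest annotated transcript. Intervals are Clopper-Pearson intervals at 95%. Genome copies of at least 500 bases and 90% identity were found with BLAST+ 2.17.0. Scripts ran in Python 3.11.15 with matplotlib 3.10.9 for plots, scipy 1.17.1 for intervals, and pandas 2.3.3 and numpy 2.4.6.

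The text names all members, Arrb1, Arrb2 and, of each wider list, each analysed gene past the limits and the highest gene. Marker genes, genes with overlapping loci and Cav1 are named in addition. The members and lists were chosen with earlier results of these data known. Alternatives were other FPKM minimums, pseudocounts, limits, scalings and treatments of shared symbols.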

Additional observations from a re-analysis of the deposited data

How the results depend on the processing

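None of the 10 members (9 with a minimum of 5 FPKM, which drops Dnm1) was past the limits under any alternative. Their median log2 ratio ran from -0.02 to 0.02. With 3 other scalings and with pseudocounts of 0.1 and 1 FPKM, no member's ratio left its counting interval. Clta ranged from 0.714 to 0.726 and Ap2s1 from 0.876 to 0.889, while Ap2b1 (0.994 to 1.01) and Dnm2 (0.998 to 1.01) fell on either side of 1. Arrb1 ranged from 0.353 to 0.432, and with a pseudocount of 1 FPKM its ratio left its counting interval. The number of genes past the limits, 2256 of 12646, came to 3969 of 15260 with a minimum of 0.1 FPKM and 4830 of 16302 with none. It was 1179 of 9397 with 5 FPKM and 1372 of 11622 with 1 FPKM in both libraries. With limits of 2 and 1/2 it was 1163 of 12646. The share of all genes past the limits thus depends on the minimum, and it was lower with the stricter ones. Alternatives chosen after seeing the data gave 1018 of 7345 genes whose row bounds were equal across tables and 86 of 1611 at 40 FPKM or more in both. No paired analysis was possible because there was 1 library per genotype, for which reason no replicate was left out either. Intervals cover counting error only, and depth limits Dnm1 most. 5 of the 10 members had different bounds in the tables.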
